A study of Mus musculus with 16 samples.

Results

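This account concerns melanomas that had become resistant to a BRAF inhibitor, set against melanomas biopsied after 60 days of treatment. The samples were chosen by their titles: 4 tumours called resistant, whose labels give 120 days of treatment, and 4 tumours treated for 60 days, which together are 8 of the 16 arrays of the series. The other 8 arrays are 4 untreated tumours and 4 tumours treated for 4 days, and they are used below for levels only. All 16 are biopsies of mouse melanoma tissue, so a sample holds tumour cells together with stroma, immune cells and any skin taken with them. The study's title names BRAF inhibitors. The genotype, strain and age of the mice, the name and dose of the drug and the way resistance was scored are not given in the sources used here, and neither is whether the 4 samples of a group came from 4 mice. The p-values therefore measure the spread between these samples, part of which may be technical.

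Each biopsy was hybridised to 1 two-colour Agilent array, with tumour RNA in Cy5 and a common reference, Universal Mouse Reference RNA, in Cy3. A level is the log2 ratio of Cy5 to Cy3 after normalisation, and a difference is resistant minus 60-day on that log2 scale, so that 1 unit is a doubling and a positive value means higher in resistant tumours. Differences are given with the standard error from limma, which was fitted on all 16 arrays with the slide as a block.

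BRAF is a kinase of the MAPK pathway, which carries growth signals from receptors through RAS, RAF, MEK and ERK to the nucleus. Inhibitors of mutant BRAF shut this pathway down in melanoma cells, and regrowth under the drug is often accompanied by renewed signalling, by a loss or gain of the pigment programme, or by a changed stroma. Granulocytes and monocytes, which carry S100a8 and S100a9 and are drawn in by CXC and CC chemokines, are among the stromal cells known to enter melanomas.

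Resistant replicate 1 stood apart from the other arrays of both groups and bears on most results. Over all 16 arrays the first principal component held 39.9% of the variance, and resistant replicate 1 lay at 91.1 on it, while the other 3 resistant arrays lay between -28.6 and 16.7 and the 60-day arrays between -35.1 and -12.4. The next highest were untreated replicates 2 and 4, at 57.0 and 49.8. Correlations between arrays ran from 0.627 to 0.916 within the resistant group and from 0.920 to 0.961 within the 60-day group. Genes of skin structures were low on that array: the mean level of the sebaceous gland list was 0.21 on resistant replicate 1, against 2.99 to 3.41 on the other resistant arrays and 2.92 to 3.53 on the 60-day arrays. The keratinocyte list had a mean level of 2.14 there, against 3.78 to 4.91 on the other resistant arrays and 3.99 to 4.75 on the 60-day arrays. In a bulk sample, fewer cells of a type and less RNA per cell cannot be told apart. Each slide held 2 arrays of each group, and within these groups the slide coincided with a code in the sample titles, so slide and code cannot be told apart. The correlation between the differences on slide 1 and those on slide 2 was 0.213. Of the 16 melanocyte genes measured, 10 were above background on all 8 arrays.

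No gene passed the test. Of 21969 genes, 0 had an adjusted p under 0.05, which is 0%, and the smallest adjusted p was 0.247 (limma). At an unadjusted p under 0.05, 1796 genes differed, where 1098 would be expected by the threshold alone. Of these, 869 were higher in resistant tumours, or 3.96% of genes, and 927 were lower, or 4.22%. With each array centred on its median in place of loess the split was 304 higher and 705 lower. Below 1098 were the counts without resistant replicate 1 (762), without 60-day replicate 2 (1022), on slide 1 alone (252) and with median centring (1009). The other settings tried gave more than 1098, up to 4508 with array weights. In 243 genes, or 1.11%, every resistant array lay above every 60-day array, and in 554, or 2.52%, every resistant array lay below. These percentages are the background for all counts below. At least a doubling of the level was seen in 185 genes and at least a halving in 433, with a median difference over all genes of -0.0029. With arrays weighted by limma's estimate of their quality, 125 genes were called, 61 higher and 64 lower. Resistant replicates 1 and 3 had weights of 0.28 and 0.337, and resistant replicates 2 and 4 had weights of 2.44 and 0.903.

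The 24 leading genes were the 12 in each direction with the smallest unadjusted p among those with at least a doubling or halving and no overlap between groups. None passed the test, and the adjusted p of each was 0.599 (limma). The higher 12 were S100a8, Il1b, Mmp9, Cxcl3, Lcn2, Bcl3, Srgn, Mmp13, Prl2c5, Msr1, Ermard and Igfbp4. Among the lower 12 were Krt77, Dsg4, Tesc, Orm1, Hs3st6, Skint4, Cybrd1, Zcchc12, Cfap57, Ppp2r2c and Nppc. Since they were chosen for not overlapping, their agreement between slides is fixed by that choice.

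**Figure D1:**
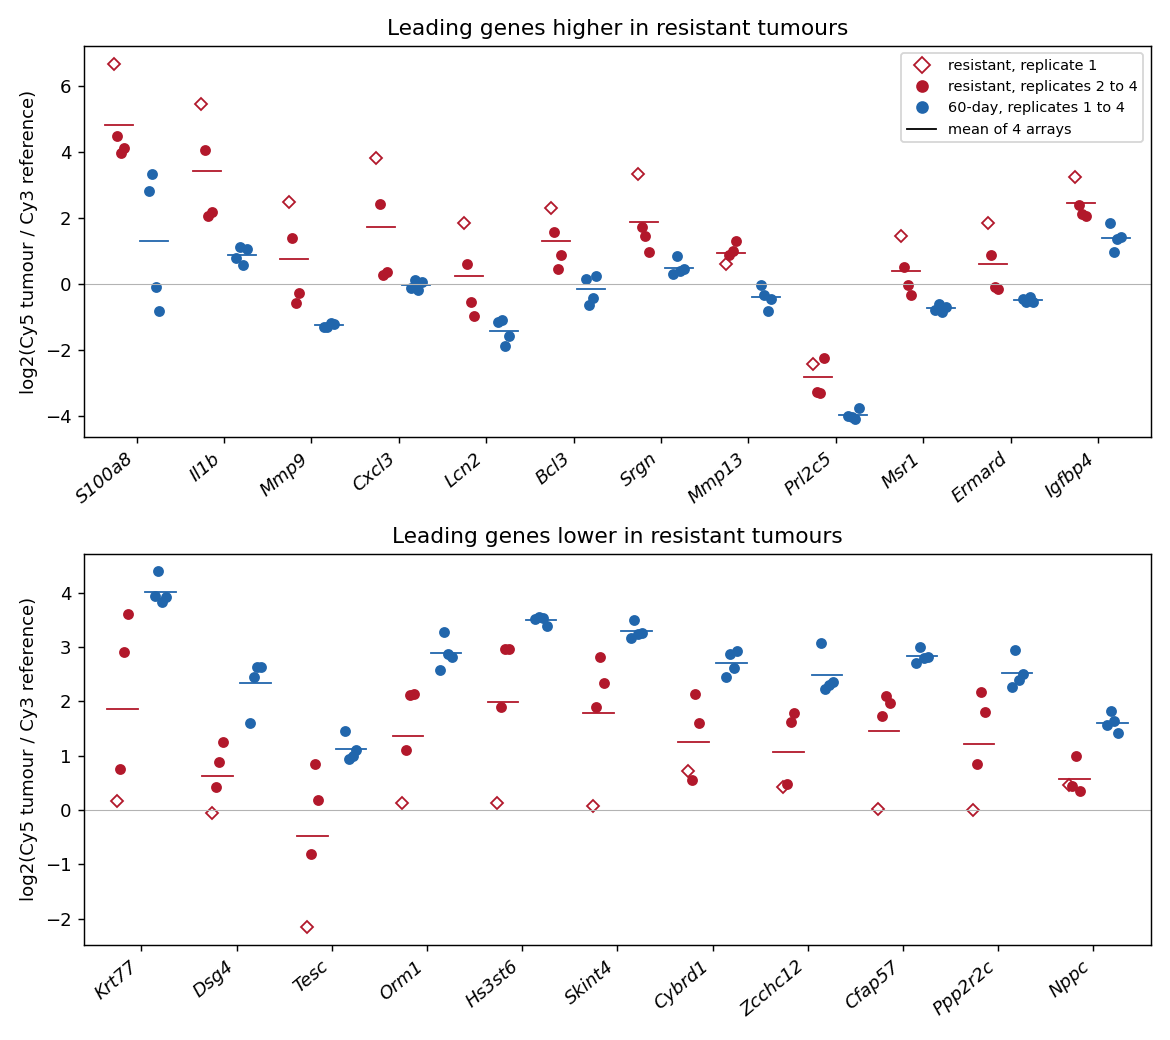
Level, as log2 of Cy5 tumour over Cy3 reference, of 23 of the 24 leading genes on each of the 8 arrays; diamonds are resistant replicate 1, dots the other arrays and lines the mean of 4 arrays. The resistant points lie above the 60-day points for the 12 genes of the upper panel and below them for the 11 of the lower panel, and resistant replicate 1 is the farthest out in most, for example at 6.68 for S100a8.

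S100a8 had the largest difference of the leading genes. It encodes one subunit of calprotectin, a calcium-binding protein complex abundant in the cytosol of neutrophils and monocytes. Its level was 6.68, 4.47, 3.96 and 4.12 in resistant tumours 1 to 4, against 2.83, 3.34, -0.10 and -0.82 in 60-day tumours 1 to 4. All resistant tumours lay above all 60-day tumours, and the 60-day tumours fell into a higher pair on slide 2 and a lower pair on slide 1. The difference was 3.50 ± 0.74, with 4.50 on slide 1 and 2.49 on slide 2, and it was 3.10 ± 0.78 without resistant replicate 1. S100a9, the partner subunit, had levels of 7.46, 7.37, 5.62 and 6.59 in resistant tumours and 6.08, 6.01, 3.68 and 3.26 in 60-day tumours. The groups overlapped, because the lowest resistant array lay below the slide 2 pair of 60-day arrays, but on each slide both resistant tumours were higher. Its difference was 2.00 ± 0.35 (limma, adjusted p = 0.311), with 2.63 on slide 1 and 1.37 on slide 2, 1.99 without resistant replicate 1 and 4.24 from the Cy5 signal alone. The Cy5 signal thus differed more than the ratio, so the normalised Cy3 reference signal of this probe was also higher on the resistant arrays. The reason was not tested. The mean level of S100a8 was 4.07 in untreated, 2.96 in 4-day, 1.31 in 60-day and 4.81 in resistant tumours, and that of S100a9 was 6.20, 5.67, 4.76 and 6.76 in the same order.

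The stretches just upstream of the start sites of S100a8, S100a9, Lcn2 and Cxcl3 are shown because these myeloid genes were higher together. They are the 250 bases before the RefSeq start on GRCm38.p6, written 5′ to 3′ on the gene's strand, and 17 of the 24 leading genes had an entry in the RefSeq promoter table. Capitals mark 3 motifs searched on both strands: the TATA box TATAAA, the C/EBP motif TTGCNNAA and the NF-kappaB motif GGNNTTTCC. The S100a8 stretch is chr3:90668821-90669070 on the plus strand, that of S100a9 chr3:90695722-90695971 on the minus strand, that of Lcn2 chr2:32387740-32387989 on the minus strand and that of Cxcl3 chr5:90785851-90786100 on the plus strand.
S100a8: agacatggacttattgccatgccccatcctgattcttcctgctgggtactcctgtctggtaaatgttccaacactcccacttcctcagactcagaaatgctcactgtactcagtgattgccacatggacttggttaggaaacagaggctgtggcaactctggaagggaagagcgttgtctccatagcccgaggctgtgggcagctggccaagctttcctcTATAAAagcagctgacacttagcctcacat
S100a9: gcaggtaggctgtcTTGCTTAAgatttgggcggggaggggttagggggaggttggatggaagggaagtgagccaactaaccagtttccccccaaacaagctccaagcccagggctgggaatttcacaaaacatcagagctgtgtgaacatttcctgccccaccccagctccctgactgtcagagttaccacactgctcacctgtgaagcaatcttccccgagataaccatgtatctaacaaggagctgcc
Lcn2: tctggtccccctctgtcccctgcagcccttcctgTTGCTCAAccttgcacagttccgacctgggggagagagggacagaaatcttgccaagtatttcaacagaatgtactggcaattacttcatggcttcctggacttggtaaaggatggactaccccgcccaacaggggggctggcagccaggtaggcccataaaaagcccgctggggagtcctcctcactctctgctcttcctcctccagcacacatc
Cxcl3: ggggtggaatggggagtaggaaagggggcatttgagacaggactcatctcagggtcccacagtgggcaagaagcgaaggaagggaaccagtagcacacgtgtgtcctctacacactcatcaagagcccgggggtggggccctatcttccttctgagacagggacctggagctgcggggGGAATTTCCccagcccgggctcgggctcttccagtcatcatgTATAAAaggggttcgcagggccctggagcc
No 2 of the marked motifs overlap. A TATA box starts 30 bases before the start site in S100a8 and in Cxcl3, a C/EBP match lies 236 bases before it in S100a9 and 216 in Lcn2, and the NF-kappaB match in Cxcl3 lies 72 bases before it. Over all 32851 promoters of the table, 12.4% of such stretches held the TATA box, 9.56% the C/EBP motif and 4.93% the NF-kappaB motif. A match is a run of letters only and shows no binding.

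Of the list of granulocytic myeloid cells, 13 of 17 genes were measured and all 13 had a positive difference after loess, with a median of 1.47. None passed the test, 7 were higher at an unadjusted p under 0.05 and none lower, and 3 had groups that did not overlap. Lcn2, a neutrophil granule protein that binds iron-carrying siderophores and is also made by epithelium, had levels of 1.84, 0.61, -0.54 and -0.97 in resistant tumours and -1.15, -1.08, -1.88 and -1.56 in 60-day tumours. The 2 resistant tumours on slide 2 were the highest, and the difference was 1.65 ± 0.43. Mmp9, a gelatinase of neutrophil granules, had levels of 2.47, 1.40, -0.57 and -0.27 in resistant tumours and between -1.31 and -1.17 in 60-day tumours. Its difference of 2.00 ± 0.57 was 0.77 on slide 1 and 3.24 on slide 2. Csf3r, the receptor for granulocyte colony-stimulating factor, had levels between 0.35 and 0.41 in resistant tumours and between 0.22 and 0.56 in 60-day tumours, a difference of 0.00 ± 0.23, and of -0.21 with median centring. Ly6g, the classical neutrophil surface marker, and Elane, a protease of granulocyte precursors, had differences of 0.14 ± 0.39 and 0.18 ± 0.16; both were picked after their values were seen, as were Cxcr2 at 1.38 ± 0.48 and Camp at 1.56 ± 0.66. Without resistant replicate 1, 10 of the 13 members were positive and 5 had an unadjusted p under 0.05, with Cxcr2 at 0.76 and Camp at 0.65. The mean level of the list was 0.96 to 3.32 on resistant arrays and 0.33 to 1.05 on 60-day arrays, which overlap between slides, and the median difference was 0.76 without resistant replicate 1 and 0.15 on slide 1 alone.

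The list of myeloid chemokines and growth factors had a median difference of 0.81 over 18 measured genes, with 15 positive, 9 higher and 1 lower at an unadjusted p under 0.05, and 5 that did not overlap. Il1b, the secreted inflammatory cytokine of monocytes and neutrophils, had levels of 5.45, 4.05, 2.06 and 2.19 in resistant tumours and 0.80, 1.12, 0.58 and 1.07 in 60-day tumours. The lowest resistant tumour lay about 1 unit above the highest 60-day tumour, and the difference was 2.54 ± 0.70, with 1.90 ± 0.63 without resistant replicate 1. Its mean level was 3.27 in untreated, 1.60 in 4-day, 0.88 in 60-day and 3.44 in resistant tumours. Cxcl3, a ligand of the granulocyte receptor CXCR2, was well above background in 3 of 4 resistant tumours and in 0 of 4 of the 60-day tumours. Its Cy5 signal was at least 2.72-fold higher in resistant tumours, with the 60-day side bounded by the lowest signal above background or its own, and the fitted difference of 1.74 ± 0.52 was 0.37 on slide 1 and 3.12 on slide 2. The other CXCR2 ligands with large differences, chosen after their values were seen, were Cxcl5 at 3.95 ± 1.52 and Cxcl1 at 2.24 ± 0.89. Cxcl5 had levels of 4.59, 1.21, -3.35 and -2.24 in resistant tumours and between -4.04 and -3.69 in 60-day tumours, so that the 2 resistant tumours on slide 2 carried the difference. Cxcl12, a stromal chemokine, had levels of 2.17, 0.51, -1.23 and -1.34 in resistant tumours and between -1.33 and -1.12 in 60-day tumours, so it was higher on slide 2 and not on slide 1. Ccl2, which draws in monocytes through the receptor CCR2, had levels of 0.42, -1.04, -1.50 and -1.53 in resistant tumours and -1.36, -1.62, -2.31 and -1.67 in 60-day tumours, a difference of 0.83 ± 0.37, and 0.40 ± 0.27 without resistant replicate 1. Without that array the median of the list was 0.46, and 4 of its genes had an unadjusted p under 0.05.

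All 18 measured genes of monocytes and macrophages had a positive difference after loess, with a median of 0.38 and 4 higher at an unadjusted p under 0.05. Msr1, the macrophage scavenger receptor, had levels of 1.47, 0.53, -0.04 and -0.32 in resistant tumours and between -0.85 and -0.60 in 60-day tumours. The groups did not overlap, and the difference was 1.14 ± 0.34. Cd14, the co-receptor for lipopolysaccharide, had levels of 1.40, -0.63, -2.27 and -1.82 in resistant tumours and between -2.91 and -2.32 in 60-day tumours, a difference of 1.71 ± 0.61 that was 0.61 on slide 1. Ccr2, the monocyte chemokine receptor, and Csf1r, the receptor for macrophage colony-stimulating factor, differed by 0.71 ± 0.45 and 0.47 ± 0.33, both with overlapping groups. Itgam, which encodes the CD11b integrin chain, differed by 0.11 ± 0.21, while another of its probes gave 0.84. The mean level of the list was 1.76 to 2.98 on resistant arrays and 1.43 to 2.10 on 60-day arrays. Without resistant replicate 1 the median was 0.25, with 16 of 18 positive and 2 at an unadjusted p under 0.05. Skeletal muscle genes had a larger median of 0.57, with 16 of 17 positive and 0 at an unadjusted p under 0.05. Erythroid blood cell genes had 0.51, with 5 of 7 positive and 1 lower at that p. The part of muscle and blood in the myeloid values was not tested.

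Of 10 measured genes by which myeloid cells restrain T cells 9 were positive, with a median of 0.40 and 5 higher at an unadjusted p under 0.05. The median was 0.28 without resistant replicate 1, and 3 then had an unadjusted p under 0.05. Ptgs2, the inducible cyclooxygenase, had levels of 0.63, -1.94, -4.23 and -2.98 in resistant tumours and between -4.24 and -3.71 in 60-day tumours, a difference of 1.92 ± 0.76 that was 0.37 on slide 1 and 3.47 on slide 2. Arg1, the arginine-degrading enzyme of suppressive myeloid cells, had levels of 3.48, 5.22, 3.16 and 4.00 in resistant tumours and 4.17, 3.94, 2.25 and 2.42 in 60-day tumours. The groups overlapped, and the difference was 0.77 ± 0.41, with 1.24 on slide 1 and 0.29 on slide 2. Tgfb1, the suppressive cytokine, and Stat3, a transcription factor downstream of interleukin receptors, differed by 0.56 ± 0.18 and 0.38 ± 0.17.

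Among the other leading higher genes, Bcl3, an IκB-family co-regulator of NF-kappaB, had levels of 2.30, 1.58, 0.46 and 0.90 in resistant tumours and 0.17, -0.62, -0.41 and 0.25 in 60-day tumours, a difference of 1.46 ± 0.38. Srgn, the proteoglycan of blood cell granules, had levels of 3.34, 1.74, 1.46 and 0.97 in resistant tumours and 0.29, 0.86, 0.39 and 0.46 in 60-day tumours, a difference of 1.38 ± 0.42. Both were highest in resistant replicate 1 and stayed at 1.16 and 0.88 without it. Prl2c5, a hormone gene of the prolactin family, was higher by 1.16 on each slide, but was above background in 4 resistant tumours and in 1 of the 60-day tumours, and close copies of this gene can share its probe. Igfbp4, a binding protein for insulin-like growth factors, differed by 1.06 ± 0.32. Ermard, a membrane protein of the endoplasmic reticulum, differed by 1.10 ± 0.37, while its 4 other probes gave values from 0.16 to 1.28.

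Matrix proteases and their inhibitors had a median difference of 0.60, with 14 of 17 positive, 7 higher at an unadjusted p under 0.05 and none lower. The median was 0.40 without resistant replicate 1, and 4 then had an unadjusted p under 0.05. Mmp13, a collagenase that cuts fibrillar collagen, had levels of 0.60, 0.88, 1.00 and 1.30 in resistant tumours and -0.02, -0.32, -0.82 and -0.46 in 60-day tumours. It did not follow resistant replicate 1, which was the lowest of the 4, and its difference of 1.35 ± 0.40 was 1.40 ± 0.44 without that array, with 1.79 on slide 1 and 0.91 on slide 2. Its mean level was 1.41 in untreated, -0.53 in 4-day, -0.41 in 60-day and 0.95 in resistant tumours. Adamts4, a protease of matrix proteoglycans, had levels of 5.06, 4.13, 3.43 and 4.26 in resistant tumours and 3.48, 2.47, 3.29 and 3.19 in 60-day tumours, so the groups just overlapped at a difference of 1.11 ± 0.32. Timp3, a matrix-bound inhibitor of these proteases, went the other way at -0.56 ± 0.33.

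Fibroblast and matrix genes had a median difference of 0.26 with 20 of 22 positive, but -0.01 on slide 1 alone and 0.12 without resistant replicate 1. Col1a1, a chain of the main fibrillar collagen, differed by 0.22 ± 0.29, and Tnc, the matrix protein tenascin C, by 1.35 ± 0.61, with levels of 4.78, 2.86, -0.16 and 1.91 in resistant tumours and 0.67 to 1.50 in 60-day tumours; the deposited value table gave -1.38 for Tnc. Lox, the enzyme that cross-links collagen, did not overlap between groups and differed by 0.82 ± 0.30. Complement and coagulation genes had a median of 0.40, with 12 of 14 positive and 3 higher at an unadjusted p under 0.05, and without resistant replicate 1 a median of 0.26, with 10 positive and 1 at that p. C3, the central complement component, had levels of 1.64, 0.11, -0.03 and -1.45 in resistant tumours and -2.92, -0.50, -1.93 and -1.13 in 60-day tumours, and differed by 1.69 ± 0.63 with overlapping groups. Cfb, complement factor B, differed by 0.80 ± 0.23. Endothelial genes had a median of 0.23, but 0.03 without resistant replicate 1 and -0.10 on slide 1 alone. Plvap, a protein of vessel wall openings, differed by 0.49 ± 0.17, while Kdr, the main receptor for vascular endothelial growth factor, differed by -0.18 ± 0.40.

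**Figure D2:**
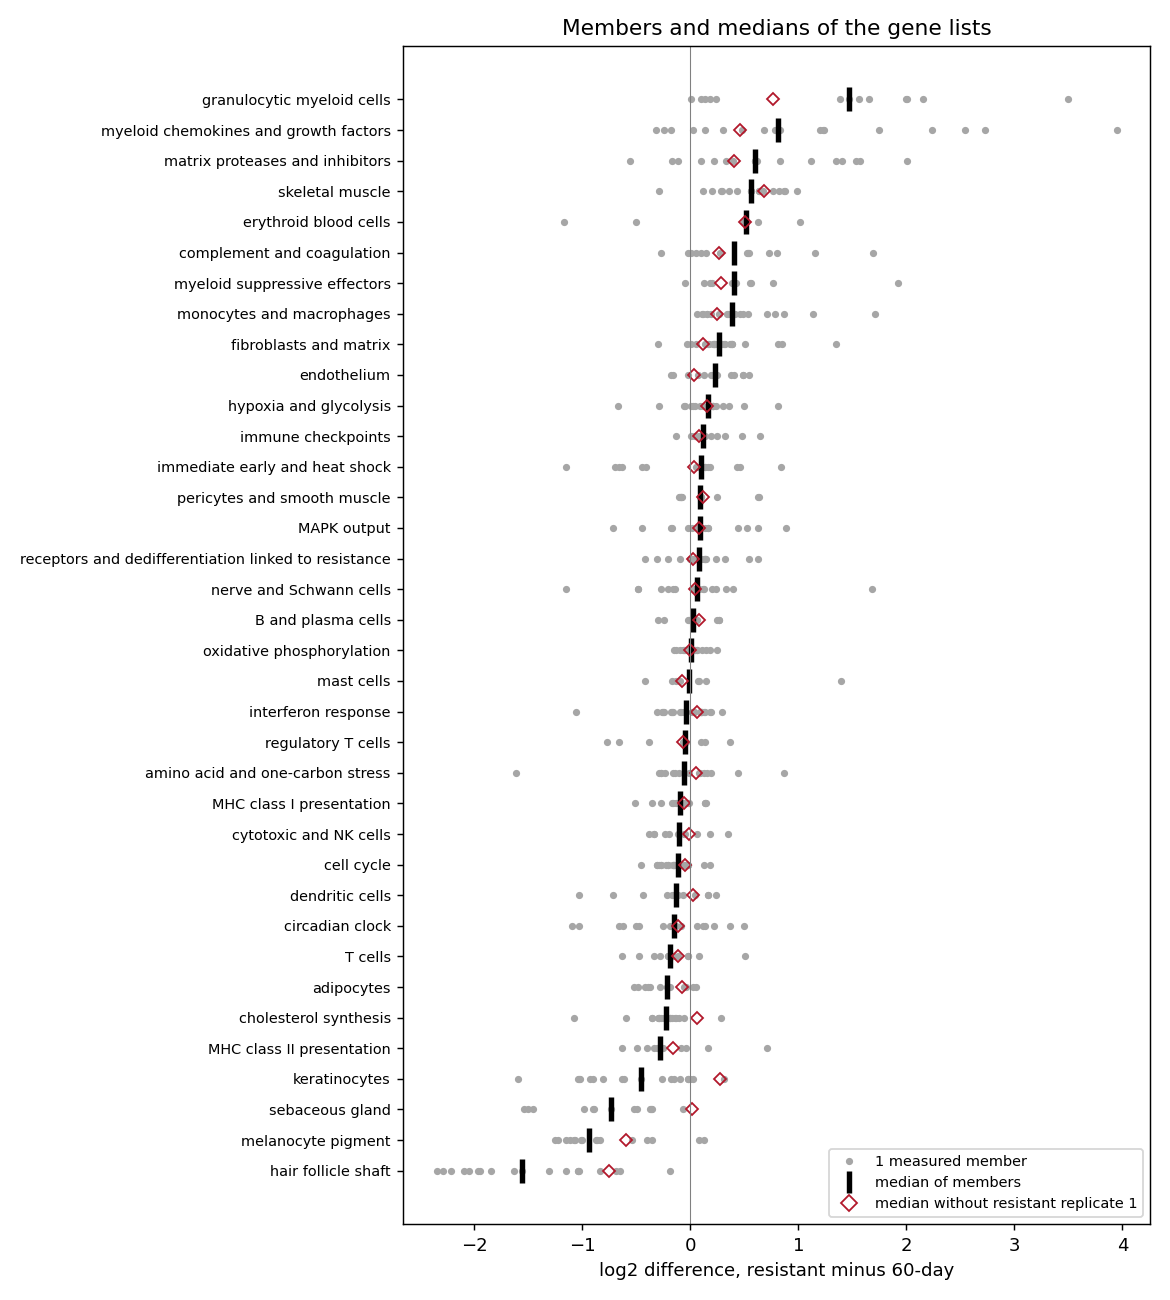
Difference of each measured member of the 36 gene lists (dots), the median of each list (bars) and the median without resistant replicate 1 (diamonds), in log2 units, resistant minus 60-day. Granulocytic genes have the highest median at 1.47 and hair shaft genes the lowest at -1.56, and both medians lie closer to 0 without that array, at 0.76 and -0.75.

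Of 16 measured melanocyte pigment genes 14 had a negative difference, with a median of -0.94. At an unadjusted p under 0.05, 9 were lower and none higher, and without resistant replicate 1 the count with such a p was 3; 1 gene did not overlap between groups. Dct, the enzyme dopachrome tautomerase of melanin synthesis, had levels of 4.81, 7.54, 4.34 and 4.52 in resistant tumours and 6.58, 7.26, 5.97 and 6.29 in 60-day tumours. Resistant tumours 1, 3 and 4 lay below every 60-day tumour, while resistant replicate 2 lay above all of them, and the difference was -1.22 ± 0.57, but 0.06 from the processed signals of the scanner software. Tyr, the tyrosinase that starts melanin synthesis, had levels of -0.13, 1.04, 0.14 and -0.17 in resistant tumours and 0.49, 1.48, 1.18 and 1.07 in 60-day tumours, a difference of -0.83 ± 0.32. Oca2 and Gpr143, both melanosome membrane proteins, had differences of -1.11 ± 0.37 and -1.07 ± 0.35, and each was above background in 1 of 4 resistant tumours and in 4 of 4 of the 60-day tumours. Mitf, the lineage transcription factor that drives these genes, had levels of 0.67, 0.62, 0.68 and 0.05 in resistant tumours and 0.41, 1.03, 1.18 and 1.01 in 60-day tumours, a difference of -0.40 ± 0.20. Sox10, another lineage factor, picked after its value was seen, differed by 0.09 ± 0.18. The mean list difference was -0.91 on slide 1 and -0.66 on slide 2, and the median was -0.59 without resistant replicate 1 and -0.28 with array weights. Levels of the list in resistant tumours, 0.77 to 2.14, and in 60-day tumours, 1.68 to 2.55, overlapped only through resistant replicate 2.

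Of the lists, that of the hair follicle shaft, which also holds keratins of the inner root sheath, lay furthest below the 60-day tumours. All 19 measured members were negative, with a median of -1.56, 6 were lower at an unadjusted p under 0.05, and 9 lay lower with no overlap. The mean level of the list was 1.09, 2.99, 3.50 and 4.09 in resistant tumours and 4.26, 4.63, 4.29 and 4.34 in 60-day tumours, so the groups did not overlap. This mean also varied widely within another group, from 1.29 to 3.98 in untreated tumours, and from 3.68 to 4.97 in 4-day tumours. Krt72, a keratin of the inner root sheath, had levels of 0.05, 1.31, 2.82 and 3.64 in resistant tumours and between 3.67 and 4.38 in 60-day tumours, a difference of -2.05 ± 0.70. Krt73, another inner root sheath keratin, differed by -2.29 ± 0.85 with overlapping groups. Krt85, a keratin of the hair cortex, differed by -0.19 ± 0.29 on its brightest probe, while its 2 other probes gave -1.18 and -0.74. Without resistant replicate 1 all 19 remained negative, with a median of -0.75 and 1 member at an unadjusted p under 0.05. Melanocytes also sit in hair follicles, and the part of the follicle in the pigment values was not tested.

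Among the leading lower genes, Krt77, a keratin of suprabasal epidermis and sweat ducts, had levels of 0.17, 0.75, 2.92 and 3.62 in resistant tumours and 3.94, 4.39, 3.83 and 3.92 in 60-day tumours. Its difference of -2.16 ± 0.58 was -0.61 on slide 1 and -3.71 on slide 2. Dsg4, the desmoglein of the hair shaft, had levels of -0.05, 0.43, 0.88 and 1.26 in resistant tumours and 1.60, 2.45, 2.64 and 2.63 in 60-day tumours, a difference of -1.70 ± 0.52, with -1.57 on slide 1 and -1.84 on slide 2. Orm1, the plasma acute-phase protein orosomucoid, had levels of 0.13, 1.11, 2.12 and 2.13 in resistant tumours and between 2.58 and 3.28 in 60-day tumours, a difference of -1.52 ± 0.37. Skint4, an immunoglobulin-family protein of skin and thymic epithelium, differed by -1.50 ± 0.43, and its relatives may share its probe; the deposited value table gave -0.19. Hs3st6, a sulphotransferase that modifies heparan sulphate, differed by -1.51 ± 0.47 and by -0.91 ± 0.30 without resistant replicate 1.

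Nppc, the C-type natriuretic peptide, had levels of 0.47, 0.44, 1.00 and 0.35 in resistant tumours and 1.57, 1.82, 1.64 and 1.42 in 60-day tumours, and differed by -1.05 ± 0.29. Zcchc12, a zinc finger co-activator known from brain, had levels of 0.43, 0.48, 1.62 and 1.78 in resistant tumours and 3.07, 2.24, 2.31 and 2.36 in 60-day tumours, a difference of -1.42 ± 0.30. It was 0.28 in untreated, 1.07 in 4-day, 2.49 in 60-day and 1.08 in resistant tumours on average. Tesc, the calcium-binding protein tescalcin, differed by -1.61 ± 0.47. Cybrd1, a ferric reductase, differed by -1.46 ± 0.41 on its brightest probe by -0.57 on another, and by 0.65 in the deposited value table. Ppp2r2c, a regulatory subunit of protein phosphatase 2A, and Cfap57, a protein of cilia, differed by -1.31 ± 0.41 and -1.38 ± 0.39.

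**Figure D3:**
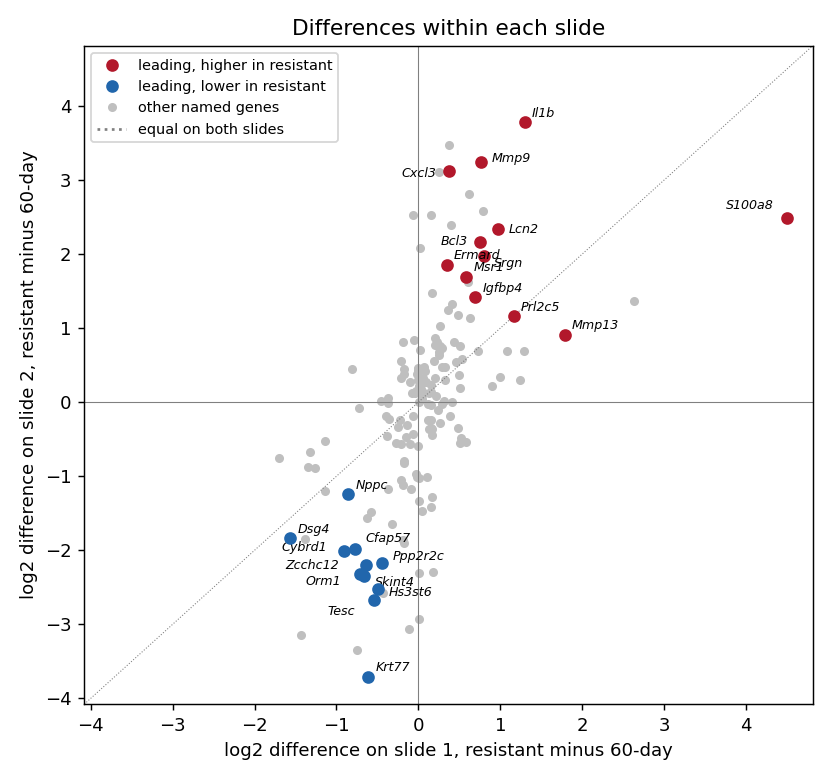
Difference on slide 2 against difference on slide 1 for 163 of the 167 named genes, in log2 units, resistant minus 60-day, each from 2 arrays of each group; red and blue dots are the leading genes and grey dots the others. Most leading genes lie farther from 0 on slide 2, which holds resistant replicate 1, while S100a8 at 4.50 and Mmp13 at 1.79 on slide 1 lie farther out there.

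Sebaceous and epidermal genes rested on resistant replicate 1. All 13 sebaceous genes were negative with a median of -0.73, but the median was 0.01 without that array. Elovl4, an enzyme of very long fatty acids, had levels of 2.02, 8.52, 7.59 and 8.11 in resistant tumours and 8.25, 8.15, 7.94 and 7.72 in 60-day tumours. Keratinocyte genes had a median of -0.46, and 0.27 without that array. Krt14, the keratin of basal epidermis, had levels of 2.98, 4.59, 3.25 and 4.07 in resistant tumours and 4.18, 3.94, 3.28 and 3.50 in 60-day tumours, a difference of -0.00 ± 0.28. Cholesterol synthesis genes, 18 of 19 negative, moved with the same array, with a median of -0.23, and 0.06 without it. The part of skin in the myeloid and pigment values was not tested.

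**Figure D4:**
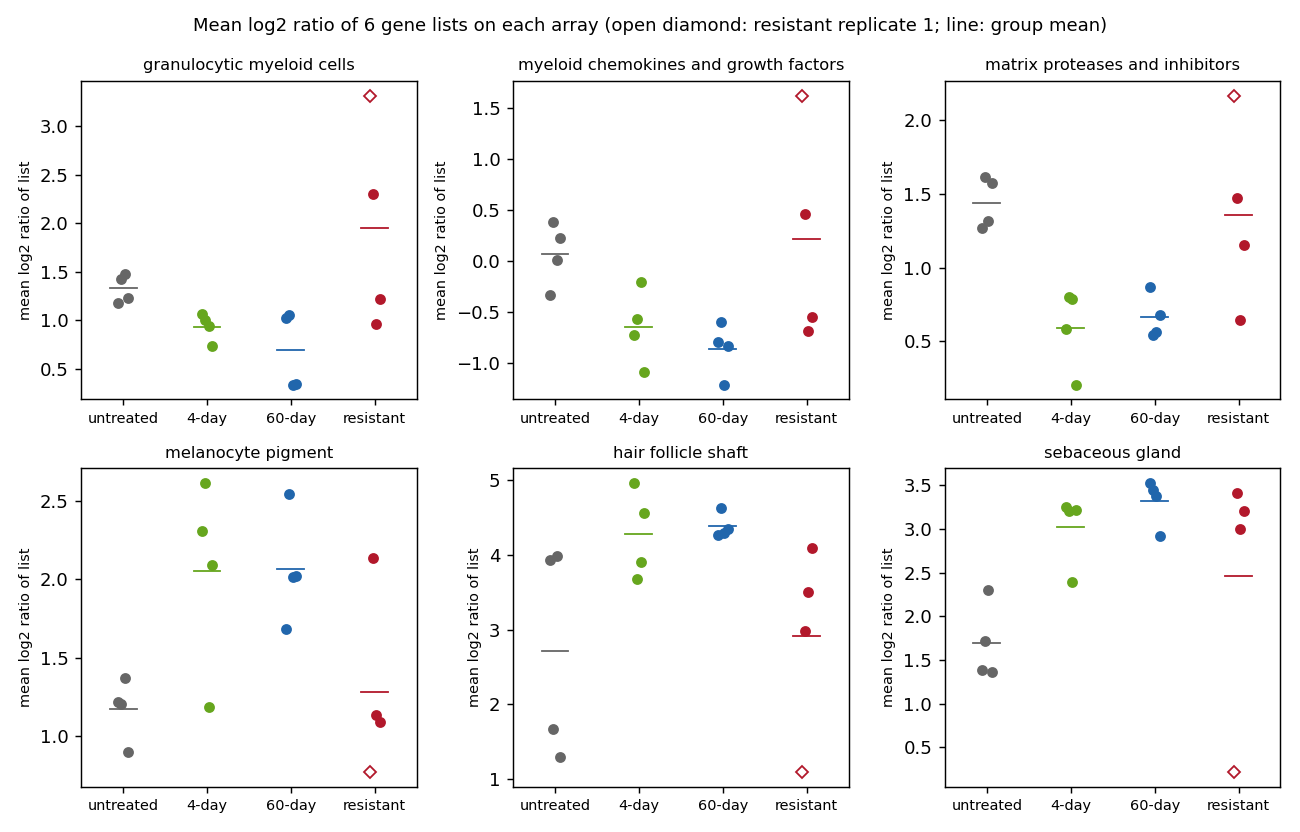
Mean level, as log2 of Cy5 tumour over Cy3 reference, of 6 gene lists on each of the 16 arrays by group; open diamonds are resistant replicate 1, dots the other arrays and lines group means. The granulocytic list reaches 3.32 on resistant replicate 1 and 2.30 on resistant replicate 2, while the other 2 resistant arrays lie at 0.96 and 1.22, against 0.33 and 0.34 for the 60-day arrays of their slide.

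The drug's own pathway gave no clear difference. Of 16 measured genes of MAPK output 11 were positive, with a median of 0.09, 2 higher at an unadjusted p under 0.05 and none lower, and the median changed sign with slide 2 alone, with median centring and with array weights. Dusp6, the phosphatase that ERK induces against itself, had levels of 0.55, 0.39, -0.33 and 0.31 in resistant tumours and 0.31, -0.13, -0.03 and 0.35 in 60-day tumours. The ETS factors Etv4 and Etv5, induced by ERK, differed by 0.02 ± 0.27 and 0.07 ± 0.28, and the feedback inhibitor Spry4 by -0.02 ± 0.37. Ccnd1, cyclin D1, had levels of 1.58, 1.78, 1.45 and 1.77 in resistant tumours and 1.66, 0.41, 0.99 and 1.73 in 60-day tumours, a difference of 0.45 ± 0.31. Ier3 and Phlda1, both early response genes, were the highest of the list at 0.89 ± 0.32, without overlap, and 0.63 ± 0.21, with overlap. The mean of Dusp6 was 1.11 in untreated, 0.17 in 4-day, 0.13 in 60-day and 0.23 in resistant tumours. Braf itself differed by -0.22 ± 0.19, and these arrays do not read mutations.

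Receptors and dedifferentiation genes linked to resistance had a median of 0.08, with 2 higher and 1 lower of 18 at an unadjusted p under 0.05. Pdgfrb, the receptor for platelet-derived growth factor B, had levels of 2.84, 2.18, 2.16 and 2.33 in resistant tumours and 2.15, 1.23, 1.86 and 1.75 in 60-day tumours. The groups did not overlap, with the closest arrays at 2.16 and 2.15, and the difference was 0.63 ± 0.23. Egfr, the receptor for epidermal growth factor, differed by -0.31 ± 0.13, and its 2 other probes gave -0.15 and 0.04. Of 27 measured cell cycle genes 25 were negative, with a median of -0.11 and 1 lower at an unadjusted p under 0.05. Without resistant replicate 1, 10 were positive and the median was -0.05, and on slide 1 alone it was 0.13. Mki67, the proliferation antigen, had levels of -2.63, -2.55, -0.69 and -1.03 in resistant tumours and -1.63, -1.52, -0.78 and -1.14 in 60-day tumours, a difference of -0.46 ± 0.36 that was 0.10 on slide 1 and -1.02 on slide 2.

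No lymphocyte gene passed the test, as was so for every gene measured. T cell genes had a median of -0.19 with 11 of 13 negative, and 0 of either sign had an unadjusted p under 0.05. That median changed sign on slide 1 alone and without 60-day replicate 2. The mean difference of the T cell list was 0.16 on slide 1 and -0.48 on slide 2. Cd3e, a chain of the T cell receptor complex, had levels of 0.01, 0.06, -1.31 and -0.08 in resistant tumours and -0.16, 0.12, -0.57 and -0.07 in 60-day tumours. Cd8a, the co-receptor of cytotoxic T cells, was above background in 1 tumour of each group, and no difference is drawn from it. Of 8 measured genes of regulatory T cells 3 were positive, with a median of -0.05 that changed sign on slide 1 alone, from Cy5 alone and without 60-day replicate 2. Foxp3, their defining factor, differed by -0.07 ± 0.22. Ikzf2, which encodes the factor Helios, was the 1 lower member at an unadjusted p under 0.05. Its levels were 0.06, 0.45, 1.46 and 0.94 in resistant tumours and 1.01, 1.86, 1.62 and 1.52 in 60-day tumours. The groups overlapped, and the difference was -0.77 ± 0.23, with -0.37 on slide 1, -1.18 on slide 2 and -0.59 without resistant replicate 1. Tnfrsf18, which encodes the receptor GITR, differed by -0.66 ± 0.46, and by -0.17 without that array. Cd274, which encodes the ligand PD-L1, by 0.05 ± 0.35, and Gzmb, the killer cell protease granzyme B, by 0.35 ± 0.20. Immune checkpoint genes had a median of 0.12, with 11 of 12 positive and 1 higher at an unadjusted p under 0.05, the co-stimulatory ligand Cd80 at 0.65 ± 0.25. Interferon response genes had a median of -0.04, those of MHC class I presentation -0.09 and those of class II -0.28. Cxcl9, an interferon-induced chemokine, differed by -1.06 ± 0.69. Each of these medians changed sign on slide 1 alone, and Cxcl9 changed sign there and in the deposited value table.

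Of 18 measured genes of the circadian clock 6 were positive, with a median of -0.15, and 5 were lower and 1 higher at an unadjusted p under 0.05. Without resistant replicate 1, 3 had such a p, and the median was -0.12. The mean level of the list was -0.19 to 0.19 on resistant arrays and 0.06 to 0.44 on 60-day arrays, which overlap. Dbp, a clock-controlled transcription factor, had levels of -1.53, -0.76, -0.93 and -1.83 in resistant tumours and 0.65, 0.20, -0.73 and -0.78 in 60-day tumours, a difference of -1.10 ± 0.33, and its other probe gave -1.18. Hlf, a factor of the same family, had levels of -0.28, 0.97, 0.69 and 0.73 in resistant tumours and 2.30, 1.35, 1.00 and 1.58 in 60-day tumours, without overlap, a difference of -1.03 ± 0.34. Dbp averaged -1.35 in untreated, 1.95 in 4-day, -0.48 in 60-day and -1.26 in resistant tumours. The labels give no hour of sampling, and its part was not tested.

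Chac1, a stress-induced enzyme that breaks down glutathione, had levels of -2.65, -1.93, -1.69 and -1.58 in resistant tumours and -1.10, 0.21, -0.43 and -0.09 in 60-day tumours, without overlap, a difference of -1.61 ± 0.76. Aldh1l2, a mitochondrial enzyme of one-carbon metabolism, went the other way at 0.87 ± 0.30. Hypoxia and glycolysis genes had a median of 0.16 and oxidative phosphorylation genes 0.004. Adh1, an alcohol dehydrogenase that also acts on retinol, differed by 0.06 ± 0.24, with levels of 1.20 in untreated, 3.52 in 4-day, 3.18 in 60-day and 3.25 in resistant tumours. Mest, an imprinted growth gene, had levels of 3.58, 2.84, 1.42 and 1.00 in resistant tumours and between 1.04 and 1.35 in 60-day tumours, and differed by 1.05 ± 0.50, with 0.02 on slide 1 and 2.08 on slide 2. Muscle and fat varied between biopsies of both groups: Acta1, skeletal muscle actin, ranged from 0.66 to 3.72 in resistant tumours and from -1.18 to 3.49 in 60-day tumours, and Adipoq, the fat cell hormone adiponectin, from 1.70 to 3.73 in resistant tumours and from 1.89 to 4.23 in 60-day tumours.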

How the data were processed

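Spot brightness was measured on 16 two-colour arrays by the authors, per the file headers with Agilent's Feature Extraction software, version 10.7.3.1, from 25 ng of total RNA, per the labels' protocols. The deposited scanner files give intensity of both dyes with local background, processed intensity, a log10 ratio and spot flags; the deposited value table gives log2 Cy5 over Cy3, with a slope of 0.993 against the scanner ratios and 21.6% to 40.2% of values missing; no header or label states why. Other flags per spot, also deposited, are well-above-background and outlier calls per the file headers.

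From the intensities, background was corrected by normexp with an offset of 50 and ratios were normalised within arrays by loess in limma 3.58.1 (R 4.3.3). Control spots had weight 0 and outlier spots were left out (0.157% of values). Probes with Cy5 above background on at least 4 of 16 arrays were kept (30486 of 55681). Each gene used its brightest probe, which gave 21969 genes. Of these, 15877 were named through RefSeq accessions or, where no accession matched, through a RefSeq symbol. limma was fitted to all 16 arrays with group and slide, with Benjamini-Hochberg adjustment. Replicates 1 and 2 lie on slide 2 and 3 and 4 on slide 1; replicate numbers only follow the order of samples. The fit was tested on simulated data.

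Named genes were the 24 leading ones, the 2 brightest and 2 with smallest p of each of 36 lists, and 30 fixed genes. The groups, lists and rules were chosen with earlier results of these data known. Motifs were searched in RefSeq promoters of GRCm38.p6; mm9 coordinates are those of the files. The number of arrays limits precision. Results of 4 named genes are not reported here.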

Additional observations from a re-analysis of the deposited data

Results flagged for a closer look

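In 27 of 406 groups of 4 arrays, 1 array lay far from the other 3 of its group, and 25 of them are given here; chance alone gives about 1 in 20 such groups, and the values below are levels.

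Resistant replicate 1 was the low array for Dsg1a at 0.47, Scd1 at 1.79, Elovl4 at 2.02, Lipe at 0.05 and Hmgcs1 at -0.16, and for the mean of sebaceous gland genes at 0.21 and of cholesterol synthesis genes at -0.54. These are genes of epidermal adhesion and of lipid synthesis or breakdown, and the other resistant arrays had 5.23 to 5.77 for Dsg1a and 3.29 to 3.58 for Scd1. Resistant replicate 2 stood above its group for Dct at 7.54 and Isg15 at 0.64. Resistant replicate 3 was low for Cd3e at -1.31 and high for the mean of cytotoxic and NK cell genes at 0.91. Resistant replicate 4 was low for Mitf at 0.05 and Acta1 at 0.66.

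In the 60-day group, replicate 1 was high for Zcchc12 at 3.07, Gfap at 2.70 and for the means of nerve and Schwann cell genes at 2.37 and of fibroblast genes at 1.92, and low for Tnfrsf18 at 0.26 and Krt73 at 2.91. Replicate 2 was high for Cd207 at 3.17 and Cd209a at 3.20, both markers of skin dendritic cells. Replicate 3 was high for H2-Q4 at 0.99 and low for Tnnc2 at 0.34, and replicate 4 was low for Hs3st6 at 3.39 and high for Myh7 at 1.29.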

How the results depend on the processing

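Over 21 alternatives, 23 of the 24 leading genes, 97 of the 167 named genes and 10 of the 36 list medians kept their sign in every one. Cybrd1 was the exception among leading genes, at 0.65 in the deposited value table. The count of genes passing the test was 3, all lower, in the 8 arrays alone and 125 with array weights (61 higher, 64 lower), and between 0 and 1 with 1 array left out; it was 0 in the others. At an unadjusted p under 0.05, counts were 252 on slide 1 alone (136 higher, 116 lower), 2866 on slide 2 alone (1450 and 1416), 1009 with median centring (304 higher) and 4508 with array weights (2177 and 2331). The higher count was 562 without the slide block and 1361 with no filter on dim probes. Leaving out 1 array gave 762 to 2861 genes, 381 to 1366 higher and 381 to 1495 lower; the count was 762 without resistant replicate 1, 2861 without resistant replicate 3 and 1022 without 60-day replicate 2. The higher count was 576 without 60-day replicate 1 and 565 without 60-day replicate 3, and the lower count 427 without 60-day replicate 2. The cause of these shifts was not tested. Signals near background limit the dim genes. No paired analysis was possible because the replicate numbers only follow sample order.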

Other observations

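The values here were picked after they were seen. Morrbid is a long non-coding RNA of short-lived myeloid cells in mice, named on the array through its RefSeq accession, and lies beside Bcl2l11, which encodes a death-promoting protein. Its level was higher in resistant tumours by 0.37 ± 0.15 with overlapping groups, while Bcl2l11 differed by 0.16 ± 0.12 and was above background in 1 resistant tumour and in 0 of the 60-day tumours. Of 9 probes in this stretch of chromosome 2 on mm9, 7 were positive, and 3 unnamed non-coding probes did not overlap between groups. The probe starting at 128211991 had the largest difference, 0.87 ± 0.14, with mean levels of 1.41 in untreated, 0.21 in 4-day, 0.14 in 60-day and 1.02 in resistant tumours. The probe starting at 128137480 differed by 0.63 ± 0.15 and the one at 128142132 by 0.36 ± 0.10.

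On chromosome 3, 19 genes or probes around and including S100a8 and S100a9 were measured, of which 8 were higher and 11 lower, with a median of -0.02. One was higher without overlap, S100a8, and 3 were lower without overlap. Of these, Gm5849, a predicted gene, differed by -2.29 ± 0.48, a probe with no gene name in the RefSeq table, NAP061714-1, by -1.95 ± 0.33, and an unnamed probe starting at 90428205 by -0.49 ± 0.15. Gm5849 and NAP061714-1 passed the test in the fit of the 8 arrays alone, and each was above background in 2 resistant tumours and in 4 of the 60-day tumours. NAP061714-1 had mean levels of 0.62 in untreated, 2.17 in 4-day, 2.50 in 60-day and 0.55 in resistant tumours. A probe on another chromosome, ENSMUST00000140820, differed by -1.05 ± 0.16 and passed when resistant replicate 2 was left out. NAP061714-1 and ENSMUST00000140820 are shown, since a name is lacking: NAP061714-1 lies at chr3:90682697-90682756 and ENSMUST00000140820 at chr7:146824865-146824924 on mm9, both on the minus strand.
NAP061714-1: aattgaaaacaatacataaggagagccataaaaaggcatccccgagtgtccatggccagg
ENSMUST00000140820: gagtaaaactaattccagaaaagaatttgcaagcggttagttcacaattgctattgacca

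Of 11 genes of the Skint family, which are expressed in skin and thymic epithelium, 10 were lower in resistant tumours, with a median of -0.87 and 2 that did not overlap, Skint4 and Skint1. The median was -0.65 without resistant replicate 1, against 0.27 for the keratinocyte list and -0.75 for the hair shaft list. Members of this family are alike enough to share probes, and the part of skin in these values was not tested. Skint7 was the exception at 0.17 ± 0.19 on its brightest probe, while its other probe gave -1.47. Some members were dim: Skint5 was above background in 1 resistant tumour, and Skint1, Skint2 and Skint6 in 2 each. All of these were above background in 4 of the 60-day tumours, and Skint3, Skint7 and Skint9 in 4 tumours of both groups.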
